A study of Mus musculus with 32 samples.

Results

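Collagen genes were read in bulk RNA sequencing of 32 mouse liver tumours. The members were the protein-coding genes whose symbol is Col followed by a digit. This gave 45 of the 54446 genes in the count tables. One of them, Col4a3bp, encodes a ceramide transfer protein and not a collagen, so 44 collagen chains were described and Col4a3bp was kept apart (log2 change at the low dose over 3 experiments -0.05, SE 0.11). By class there were 11 fibrillar chains, 4 basement membrane chains, 4 minor type IV chains, 6 type VI chains, 9 fibril-associated (FACIT) chains, 3 network forming chains, 1 anchoring fibril chain, 4 transmembrane chains and 2 others. Basement membrane chains were taken as Col4a1, Col4a2, Col15a1 and Col18a1.

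The tumours were BNL-MEA cells, a murine hepatocellular carcinoma line, grown in the liver of BALB/c mice, and every group shared this line and strain. The dose experiment held 4 vehicle tumours, 3 from mice given regorafenib, an oral multikinase inhibitor, at 5 mg/kg/day (low dose) and 3 at 20 mg/kg/day (high dose). The DC-101 experiment held 4 vehicle tumours, 3 low dose tumours and 3 from mice given 800 μg of DC-101, an anti-VEGFR antibody, on days 1, 3 and 5. A further experiment with an antibody to PD-1, called the anti-PD1 experiment, had groups of 3 tumours each for vehicle, the low dose, anti-PD1 and both agents together (the combination). Each experiment is a separate batch in the sample labels, so each treatment was compared with the vehicle of its own experiment, and comparisons of 1 experiment share those vehicle tumours. A single tumour line was used, and the labels do not tie a replicate to a mouse, so p-values measure the spread between these samples. Ages of the mice were not given in the sources used here.

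Total counts per library were between 16767130 and 27693689, and collagen chains took between 0.556% and 2.84% of them (median 2.03%). Collagen shares stood apart in 3 libraries. These were high dose replicate 1 of the dose experiment (0.556%) and, in the anti-PD1 experiment, low dose replicate 2 (0.557%) and vehicle replicate 2 (0.698%), while the other libraries held 1.15% or more. The mean of 15 hepatocyte markers ran from -0.12 to 11.84 log2 CPM over the 32 libraries. Levels are given as log2 CPM, the log2 of a gene's count as a share of the TMM-scaled library total, unless they are said to be per length.

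Collagens are proteins of the extracellular matrix whose chains wind around each other into a helix. Fibrillar collagens (types I, III and V in most soft tissue) form the tensile fibres of stroma and of liver scar and are made mainly by fibroblasts and activated stellate cells. The chains of Col4a1 and Col4a2 assemble into the sheet that underlies blood vessels and epithelia, and collagens XV and XVIII are proteoglycans bound to that sheet. In a bulk tumour, a lower value cannot tell fewer cells of a type from less RNA per cell.

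Sequences at the starts of 4 basement membrane genes and of Col3a1 are shown because Col4a1, the one collagen chain called at the low dose, lies head to head with Col4a2 and shares its start region, while Col15a1, Col18a1 and Col3a1 do not start beside another collagen gene. All are from the mouse genome build GRCm38, with transcript starts from Gencode and, for the last 3, from RefSeq (GRCm38.p6). Col4a1 runs on the minus strand and Col4a2 on the plus strand of chromosome 8, and their first exons overlap by 22 bases, shown in capitals in the first sequence (chr8:11312801-11312830, read on the strand of Col4a2).
Col4a1 and Col4a2: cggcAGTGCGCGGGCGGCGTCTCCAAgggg
Col15a1: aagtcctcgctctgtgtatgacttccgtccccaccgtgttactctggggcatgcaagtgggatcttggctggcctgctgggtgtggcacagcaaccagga
Col18a1: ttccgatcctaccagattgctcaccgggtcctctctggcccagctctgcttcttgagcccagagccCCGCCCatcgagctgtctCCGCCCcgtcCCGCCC
Col3a1: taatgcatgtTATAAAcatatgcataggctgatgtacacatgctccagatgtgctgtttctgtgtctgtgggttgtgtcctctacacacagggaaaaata
The last 3 are 100 bases each, ending 28 bases before the RefSeq start, on the strand of the gene: Col15a1 at chr4:47207885-47207984 (plus), Col18a1 at chr10:77166558-77166657 (minus) and Col3a1 at chr1:45311411-45311510 (plus). Capitals mark the TATA box letters, TATAAA, in Col3a1. In Col18a1 they mark the GC box letters, GGGCGG, which there lie on the opposite strand. In the 250 bases before the start, on either strand, the GC box letters were found in 32.7%, the TATA box letters in 12.4% and the CCAAT box letters in 33.8% of 32851 RefSeq promoters. Among 38 promoter entries of collagen chains, which cover 35 of the 44 genes, 22 held the GC box, 5 the TATA box and 13 the CCAAT box letters. The CCAAT box letters were found before both Col4a1 and Col4a2. Letters found in a window are a description and not a binding site. Other collagen genes also lie in pairs: Col4a3 and Col4a4 start 71 bases apart on chromosome 1, Col4a5 and Col4a6 start 1.31 kb apart on chromosome X, and Col3a1 lies 24.6 kb from Col5a2.

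Per length of the principal transcript, Col1a2 was the most abundant collagen mRNA, with a median of 1490 RPKM (CPM per kilobase of transcript) over 32 libraries (380 to 2150). Col3a1 followed with 490 RPKM and Col1a1, the other chain of type I collagen, with 433 RPKM, and the ranges of these 3 genes overlapped. Col18a1, which carries the endostatin fragment at its end, was next at 223 RPKM, above both chains of the type VI core, Col6a1 (182 RPKM) and Col6a2 (137 RPKM). Col4a1 had a median of 48 RPKM and Col4a2 of 28.4 RPKM. Col15a1 had 5.52 RPKM.

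For chains that assemble together, the balance within a library was more or less tight. The log2 ratio of Col4a1 to Col4a2, per length, was between 0.60 and 0.95 in 31 libraries and 1.48 in 1 low dose tumour (replicate 2, anti-PD1 experiment). That of Col6a1 to Col6a2 was between 0.11 and 0.79. The ratio of Col1a1 to Col1a2 was wider, between -3.30 and -0.89, and both ends lay in the anti-PD1 experiment. At the low end of expression, Col9a1, Col19a1, Col22a1 and Col26a1 had a median of 0 CPM. Between 32 and 36 of the 44 chains passed the filter on low counts, depending on the fit, and 8 passed it in none.

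**Figure D1:**
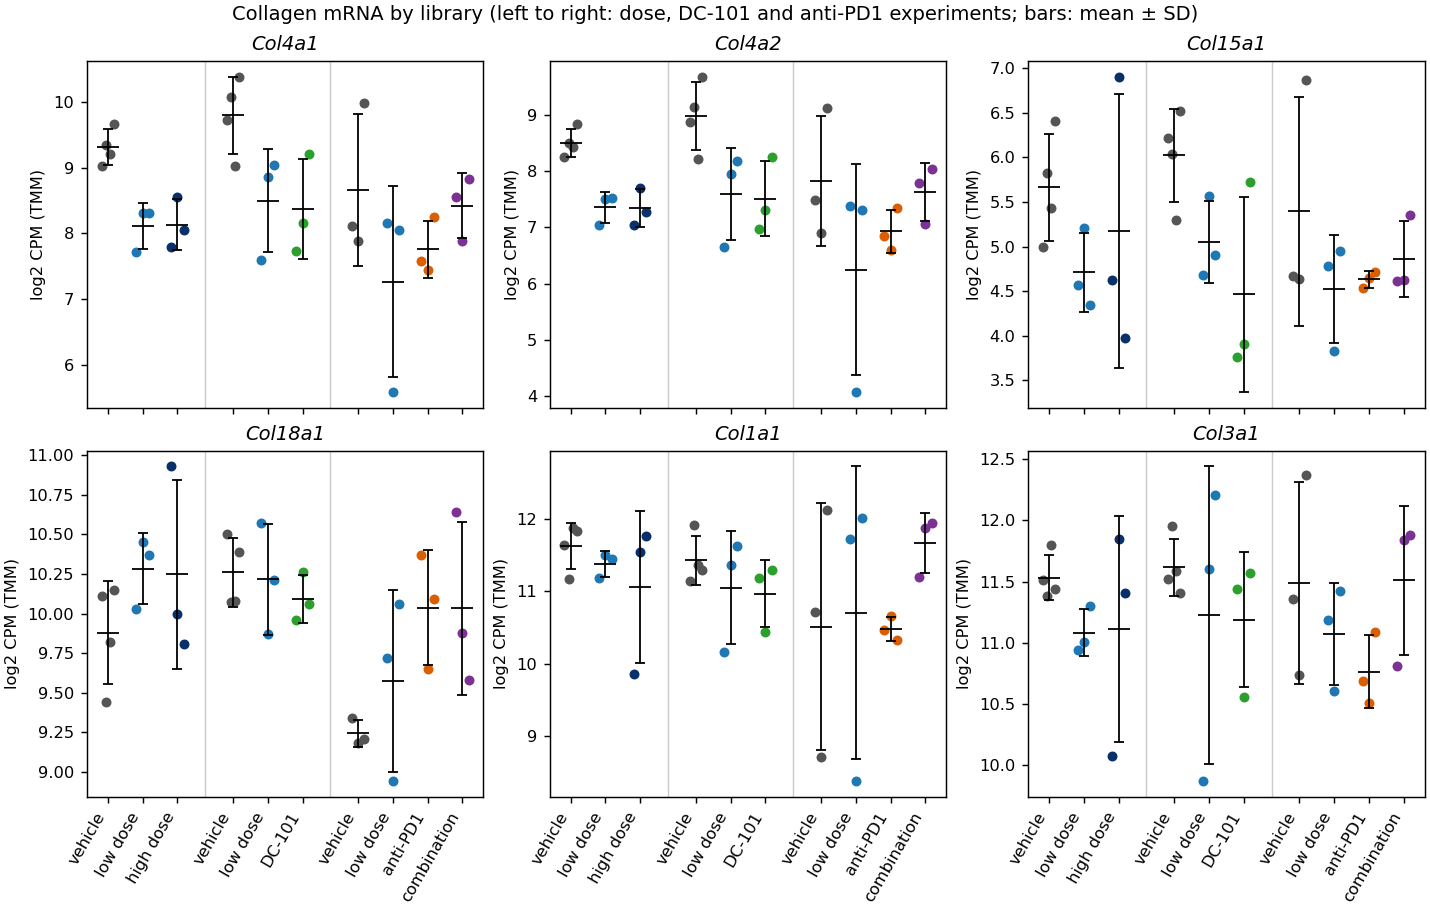
Level of 6 collagen mRNAs (y axis, log2 CPM) in each of 32 libraries (points) by treatment (x axis), with the mean and SD of each group as bars and grey lines between the experiments. In the dose experiment the regorafenib tumours lie below all 4 vehicle tumours for Col4a1 and Col4a2, and the lowest point of each (5.59 and 4.08) is in the low dose group of the anti-PD1 experiment, while Col18a1, Col1a1 and Col3a1 of low dose and vehicle tumours overlap in all experiments but the dose experiment for Col3a1.

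The low dose was tested against vehicle over the 3 experiments, with the experiment as a term. Col4a1, the commonest chain of type IV collagen, fell by 1.26 on the log2 scale (SE 0.32, 0.417-fold, adjusted p = 0.0469). Its level was 9.31 ± 0.78 log2 CPM in vehicle tumours (SD, n = 11) and 7.96 ± 1.0 in low dose tumours (SD, n = 9). Of the 32 collagen chains tested, Col4a1 was the one past the threshold, which is 1 of 32 beside 1.77% of all 15562 genes tested (1.04% lower and 0.733% higher). The call was close to the threshold. It was kept in 4 of the 20 fits that leave out 1 library, with adjusted p between 0.0321 and 0.0956. The log2 change in these fits was between -1.35 and -1.01. In 6 of 10 other settings the call was lost too (adjusted p up to 0.315), with changes between -1.31 and -1.20.

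In the dose experiment, the vehicle tumours had 9.03, 9.35, 9.21 and 9.67 log2 CPM of Col4a1 and the low dose tumours 7.71, 8.31 and 8.31. These groups did not overlap. In the DC-101 experiment the vehicle tumours had 9.72, 10.07, 9.02 and 10.38 and the low dose tumours 7.60, 8.86 and 9.04, so that low dose replicate 3 lay just above vehicle replicate 3. In that with anti-PD1 the vehicle tumours had 8.11, 7.88 and 9.99 and the low dose tumours 8.16, 5.59 and 8.05. There, vehicle replicate 3 was high, low dose replicate 2 was low, and the groups overlapped. Each of the 9 low dose tumours lay below the mean of its own vehicle group. With that low tumour (low dose replicate 2, whose collagen share was low too) left out, the change over 3 experiments was -1.15 (adjusted p = 0.0321), and without vehicle replicate 2 of that experiment it was -1.35 (adjusted p = 0.0347). Without its high vehicle replicate 3 the change of Col4a1 was -1.01, the smallest of these, and the call was lost (adjusted p = 0.0839).

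Col4a2, its partner chain, had the same estimate, -1.26 (SE 0.35, unadjusted p = 0.00166), but an adjusted p of 0.0676. Its levels were 8.25, 8.5, 8.42 and 8.84 in vehicle and 7.04, 7.51 and 7.52 in low dose tumours of the dose experiment. They were 8.86, 9.14, 8.22 and 9.67 against 6.65, 7.95 and 8.17 in the DC-101 experiment. In both of these experiments the groups did not overlap. With 7.48, 6.89 and 9.11 against 7.37, 4.08 and 7.30 in the anti-PD1 experiment, they did. Col15a1, a proteoglycan of vessel and muscle basement membranes, had a change of -1.06 (SE 0.28, adjusted p = 0.0591), with 4.64 to 6.87 log2 CPM in vehicle (median 5.82) and 3.83 to 5.57 in low dose tumours (median 4.78). All 9 low dose tumours lay below the mean of their own vehicles, yet the groups overlapped. Col18a1 had a change of 0.25 (SE 0.15, adjusted p = 0.443), and 6 of 9 low dose tumours lay above their own vehicle mean. DESeq2 called Col4a1, Col4a2 and Col15a1, among 892 genes in all, and limma-voom called Col4a1, among 304. In edgeR 276 genes were called in all.

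Among the fibrillar chains, 0 of the 9 tested passed the threshold in edgeR, DESeq2 or limma-voom, and 1 of 9 (Col11a1) had an unadjusted p under 0.05. The change of Col1a1 was -0.11 (SE 0.38), of Col1a2 0.10 (SE 0.23) and of Col3a1 -0.36 (SE 0.23, below the own vehicle mean in 8 of 9 tumours). Col1a1 varied widely within groups, from 8.72 to 12.12 log2 CPM in vehicle (median 11.36) and from 8.38 to 12.02 in low dose tumours (median 11.45). The chains of type V collagen, which sets fibril diameter, had changes of -0.30 (Col5a1), -0.20 (Col5a2) and -0.19 (Col5a3). Col11a1 and Col11a2, chains of a fibril best known from cartilage, had -1.13 (SE 0.50, adjusted p = 0.275) and 0.51 (SE 0.40), and that of Col11a1 was -0.55 once the high vehicle replicate 3 (anti-PD1 experiment) was left out. Col27a1 had 0.07 (SE 0.35). Col24a1 and Col2a1 were not tested in this fit.

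**Figure D2:**
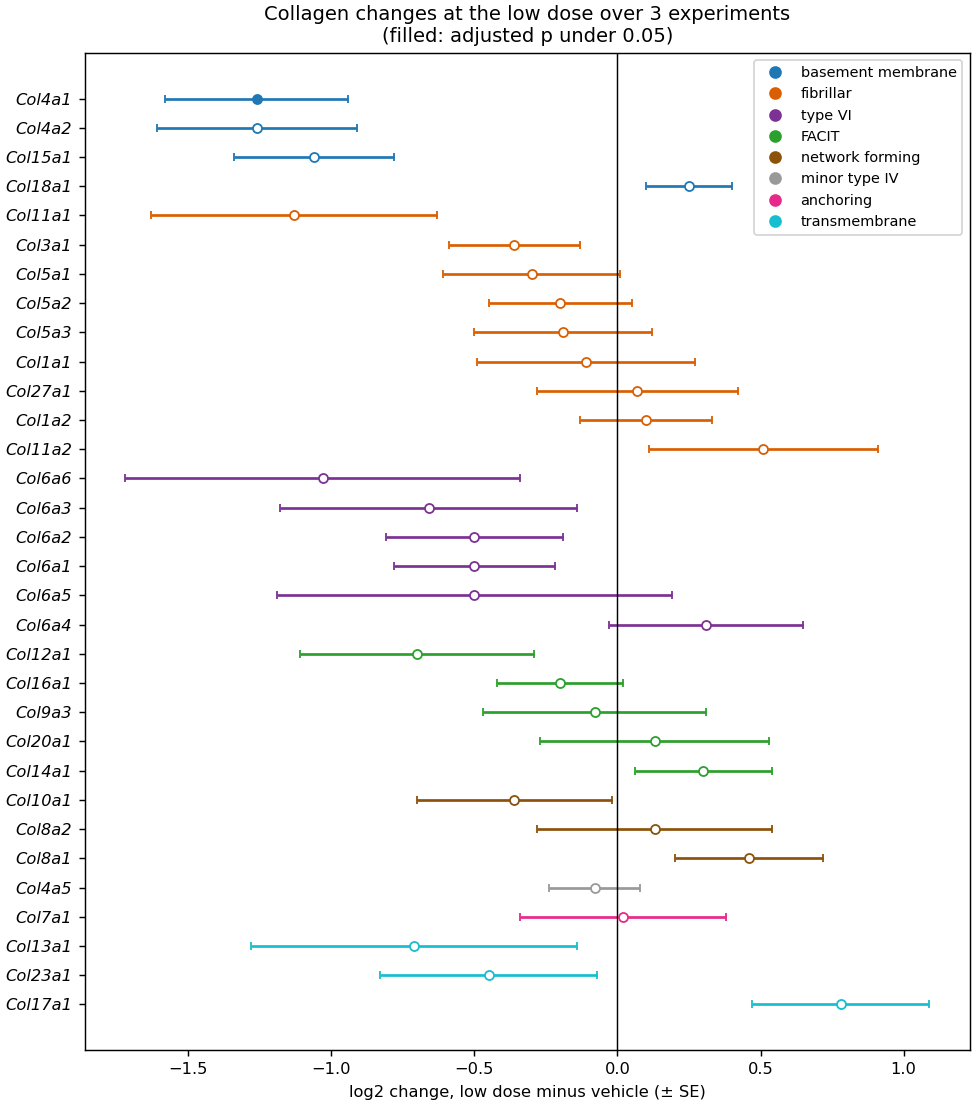
Log2 change at the low dose against vehicle over 3 experiments (x axis, point, with its SE as bar) for the 32 collagen chains tested (y axis), coloured by class, with a filled point where the adjusted p is under 0.05. Col4a1 (-1.26) is the filled point, Col4a2 (-1.26) and Col15a1 (-1.06) lie beside it, and Col18a1 (0.25) lies on the other side of 0.

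In the remaining classes no chain was called. All 6 type VI chains were tested, with changes from -1.03 (Col6a6, SE 0.69) to 0.31 (Col6a4, SE 0.34). Col6a1 and Col6a2, the core of the beaded microfilament, each had -0.50 (SE 0.28 and 0.31). Of the fibril-associated chains, which sit on the surface of fibrils, Col12a1 had the lowest change, -0.70 (SE 0.41), and Col14a1 the highest, 0.30 (SE 0.24). Col17a1, a transmembrane collagen of hemidesmosomes, had 0.78 (SE 0.31, unadjusted p = 0.0223, adjusted p = 0.224), with at most 35 counts in any vehicle or low dose library. Col4a5, a minor type IV chain, had -0.08 (SE 0.16) and Col7a1, the anchoring fibril chain, 0.02 (SE 0.36). Over all 32 chains the median log2 change was -0.20, beside 0.03 over all genes tested, and 5 had an unadjusted p under 0.05, which is near the share of all genes (16%).

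The basement membrane and fibrillar classes were then set side by side, without a test, because the classes were chosen with earlier results known. The median log2 change at the low dose over 3 experiments was -1.16 for the 4 basement membrane chains and -0.19 for the 9 fibrillar chains. Within libraries, the mean log2 CPM of 10 fibrillar chains minus that of the 4 basement membrane chains was -1.45 to -0.99 in vehicle and -0.88 to -0.67 in low dose tumours of the dose experiment. It was -2.08 to -0.95 against -0.78 to -0.43 in the DC-101 experiment and -1.56 to -0.53 against -0.47 to -0.40 in the anti-PD1 experiment. In each of the 3 experiments the low dose tumours lay above every vehicle tumour in this difference.

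Taken relative to the fibrillar mean of the same library, Col4a1 was 1.64 to 3.22 log2 units in vehicle (median 2.13) and 0.46 to 1.56 in low dose tumours (median 1.05). Col4a2 was 0.84 to 2.51 (median 1.28) and -1.05 to 0.77 (median 0.31). The fibrillar mean weighs 10 chains alike, among them Col24a1 (median 6.5 counts) and Col11a2 (median 27.5 counts). On this scale the 11 vehicle tumours and the 9 low dose tumours did not overlap for either gene. Col4a1 and Col4a2 were the 2 of 32 collagen chains whose low dose tumours lay below all vehicle tumours of their own experiment in all 3 experiments, which held for 8 of all 15562 genes (0.0514%). The same 2 chains met this relative to Col1a1 alone, beside 4 of 15562 genes (0.0257%). By level alone, 0 of 32 collagen chains met it, beside 0.443% of all genes. The tumour whose Col4a1 level was the lowest of all, low dose replicate 2 in the anti-PD1 experiment, had a low Col1a1 level as well (8.38 log2 CPM). Relative to the fibrillar mean it still had the lowest values of all 32 libraries for Col4a1 (0.46) and Col4a2 (-1.05), while relative to Col1a1 its Col4a1 value of -2.78 was the highest of the 3 in that group.

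**Figure D3:**
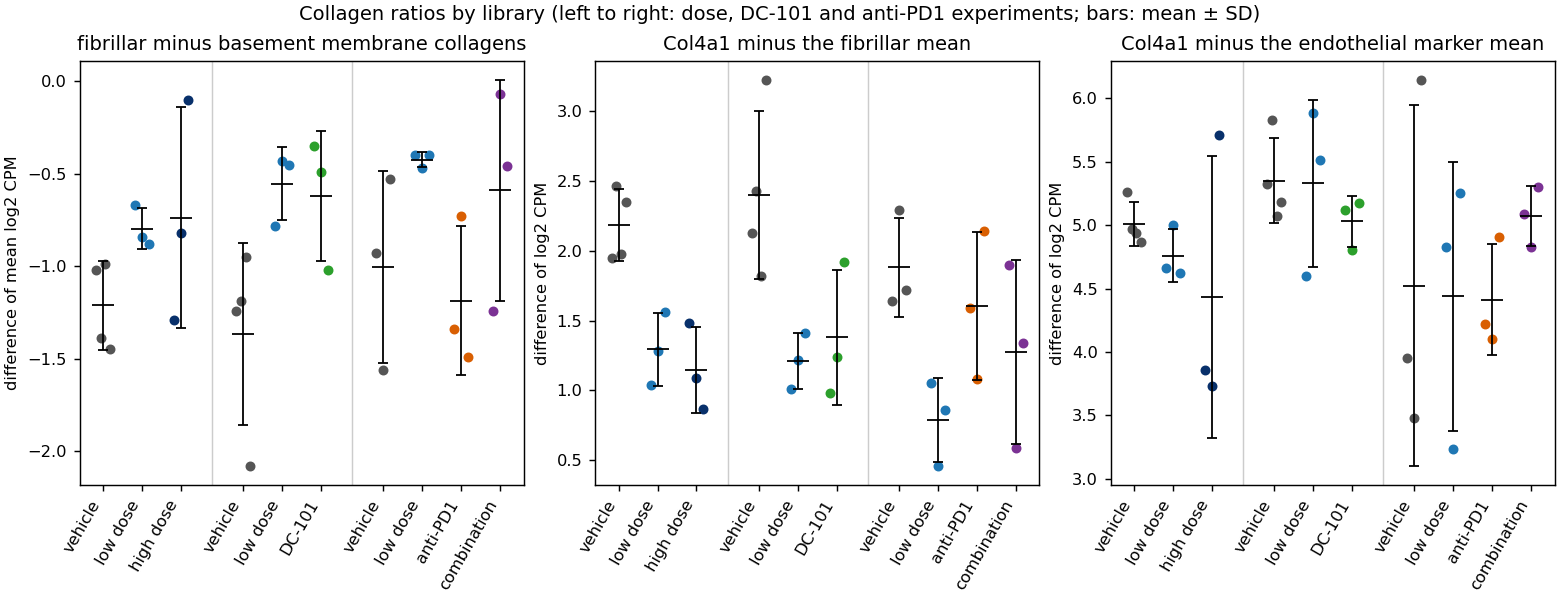
From left to right, the fibrillar mean minus the basement membrane mean, Col4a1 minus the fibrillar mean and Col4a1 minus the mean of 12 endothelial markers (y axes, log2 units) in each of 32 libraries (points) by treatment (x axis), with the mean and SD of each group as bars. In the first panel low dose tumours lie above, and in the second below, the vehicle tumours of each experiment without overlap, while in the third they overlap.

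Markers of endothelial cells, which make type IV collagen, moved in the same comparison. Of 12 endothelial markers, 9 fell and 0 rose (median log2 change -1.21), beside 1.04% and 0.733% of all genes. Cldn5, a tight junction protein, fell by 2.45 (SE 0.28, adjusted p = 0.000115), Erg, an endothelial transcription factor, by 1.42 (SE 0.25), Emcn, a surface mucin, by 1.39 (SE 0.23) and Esam, an adhesion molecule, by 1.38 (SE 0.16). The mean of the 12 markers was 3.77 to 4.79 log2 CPM in vehicle and 3.05 to 3.69 in low dose tumours of the dose experiment, 3.96 to 5.19 against 2.98 to 3.53 in the DC-101 experiment, and 3.85 to 4.40 against 2.35 to 3.33 in the anti-PD1 experiment, so it did not overlap in any. Col4a1 minus this mean was 3.48 to 6.14 in vehicle (mean 5.00 ± 0.75, SD, n = 11) and 3.24 to 5.88 in low dose tumours (mean 4.84 ± 0.74, SD, n = 9), and the groups overlapped. Col15a1 minus this mean was 0.25 to 3.02 and 0.65 to 2.59. Relative to this mean, 3 of 32 chains lay above all vehicles in all 3 experiments (Col14a1, Col17a1 and Col18a1), a share below that of all genes (24.4%).

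Other cell type markers and partners of the collagens gave these counts, to be read beside 1.77% of all genes called and 16% at an unadjusted p under 0.05. Of 10 pericyte and smooth muscle markers 1 fell (Kcnj8, a channel subunit, by 1.76), and 0 of 12 fibroblast, 5 hepatic stellate, 5 liver sinusoid and 9 macrophage markers were called by edgeR, with 3, 0, 1 and 1 of them at an unadjusted p under 0.05. Of the pericyte markers 9 of 10 had a change below 0 (median -0.67, with 4 having an unadjusted p under 0.05), and so did 10 fibroblast markers of 12 (median -0.44). Of 15 hepatocyte markers 1 rose (Ass1, a urea cycle enzyme, by 0.93), and all 15 had a change above 0 (median 1.76). They did not move alike in every experiment. All 15 were above 0 at the low dose of the dose and DC-101 experiments (medians 1.74 and 3.11). At the low dose of the anti-PD1 experiment 12 of 15 were below 0 (median -1.99), 8 of them without overlap. All 5 sinusoid markers were lower there without overlap (median -2.77). Both counts stand beside 7.37% of all genes. Of 18 basement membrane partners 2 fell, Nid2 (nidogen, which bridges laminin and type IV collagen) by 1.69 (SE 0.21) and Lama4 (a laminin chain of vessels) by 1.40 (SE 0.26). Of 9 collagen receptors Itga2, an integrin chain, rose by 0.91 (SE 0.22), a call lost in 14 of 20 fits without 1 library (adjusted p between 0.0119 and 0.0892) and in 6 of 10 other settings, with changes between 0.46 and 1.25. Of 31 genes for collagen assembly, such as prolyl hydroxylases, 0 were called, with 6 at an unadjusted p under 0.05. Without the dose or the DC-101 experiment, the calls of Erg, Emcn, Kcnj8, Lama4 and Ass1 were lost (adjusted p up to 0.146, 0.0969, 0.0599, 0.186 and 0.0779), with the same sign. The part of these cell types in the collagen values was not tested. With the hepatocyte marker mean as a covariate, Col4a1 had a change of -1.21 (adjusted p = 0.0856).

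**Figure D4:**
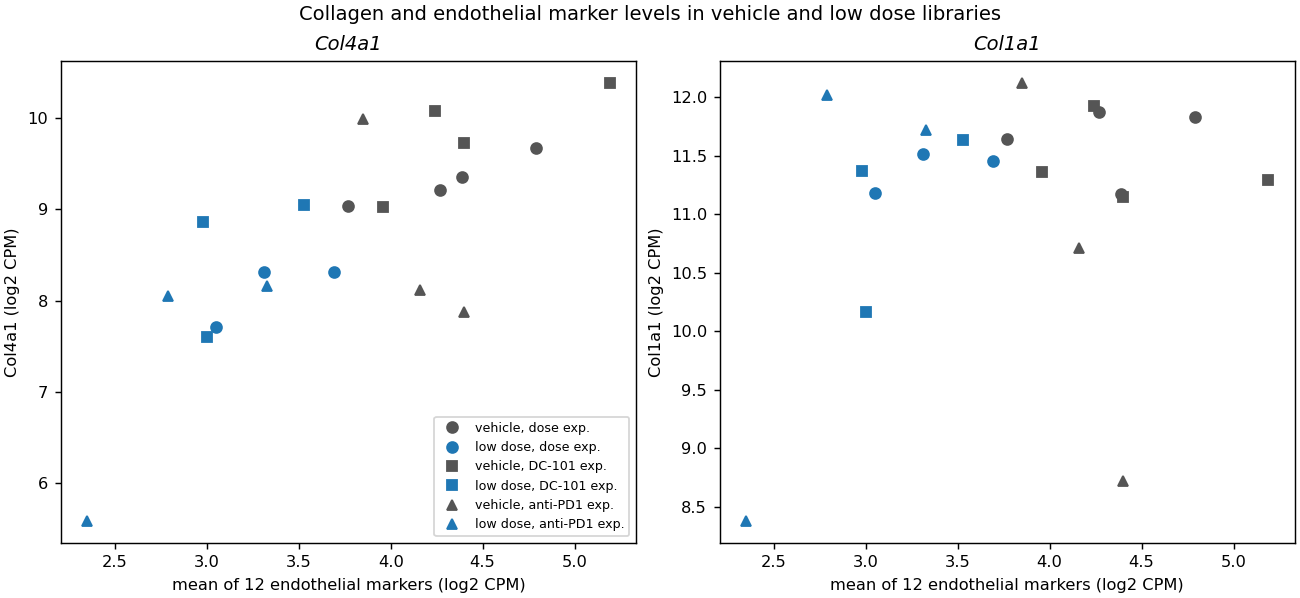
Level of Col4a1 (left) and Col1a1 (right) on the y axis against the mean of 12 endothelial markers on the x axis (both log2 CPM), with 1 point for each of 11 vehicle and 9 low dose tumours and a shape for each experiment. Col4a1 is lowest (5.59) in the library with the lowest marker mean (2.35), and Col1a1 spans 8.38 to 12.02 among low dose tumours.

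The dose experiment compared both doses with the same 4 vehicle tumours. At the low dose, 0 of 36 collagen chains were called by edgeR, which called 0% of 16525 genes, and 4 had an unadjusted p under 0.05 (4.94% of all genes). DESeq2 called 3 (Col4a1, Col4a2 and Col6a3), among 85 genes in all, and limma-voom 0, among 0 genes. The 2 smallest p-values were those of Col4a2, with a log2 change of -1.14 (SE 0.22, adjusted p = 0.398), and Col6a3, the third type VI core chain, with -1.36 (SE 0.28, adjusted p = 0.472). Col6a3 was 7.78, 7.90, 7.15 and 7.69 log2 CPM in vehicle and 5.99, 6.12 and 6.67 in low dose tumours. Those groups did not overlap. Col4a1 had -1.20 (SE 0.25), Col15a1 -1.01 (SE 0.66) and Col18a1 0.39 (SE 0.29). The type I and III chains had -0.27 (Col1a1), -0.07 (Col1a2) and -0.45 (Col3a1). In all, 5 chains lay below and 3 above every vehicle tumour without overlap, beside 6.98% and 6.91% of all genes. In the same tumours 8 of 12 endothelial markers were lower (median of the 12 -1.06) and 6 of 9 macrophage markers higher (median of the 9 0.75) without overlap. Of these lists edgeR called 0, with 4 and 5 having an unadjusted p under 0.05, and their part was not tested.

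At the high dose, 8 of 36 collagen chains were called (5 higher and 3 lower), beside 15.6% of all genes (8.8% higher and 6.82% lower), and 17 had an unadjusted p under 0.05 (40.1% of all genes). Col4a1 fell by 1.16 (SE 0.25, adjusted p = 0.0325) and Col4a2 by 1.15 (SE 0.22, adjusted p = 0.0273), near their values at the low dose (-1.20 and -1.14). The count of 8 (2582 genes in all) was 10 with DESeq2 (5275 genes) and 5 with limma-voom (1332 genes). It was 0 with total-count scaling, the replicate block, the hepatocyte covariate or the compared groups alone. Those fits called 282, 1, 119 and 4 genes in all, in that order. Col4a1 was 7.79, 8.56 and 8.05 log2 CPM in the high dose tumours and Col4a2 was 7.04, 7.70 and 7.27, all below every vehicle tumour. Col15a1 had -0.02, with 4.63, 6.90 and 3.98 log2 CPM, and without replicate 2 its change was -1.41 (adjusted p = 0.0785). Col18a1 had 0.43 (SE 0.29), which was 0.02 without replicate 1 and 0.01 with the hepatocyte covariate. Without overlap, 4 chains lay below and 6 above every vehicle tumour, beside 16.6% and 11.7% of all genes.

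Col5a3 was the third chain to fall at the high dose, by 1.23 (SE 0.27, adjusted p = 0.0345), from 8.14 to 8.93 log2 CPM in vehicle to 6.75, 7.62 and 7.67. Of the chains that rose, Col11a2 did so by 1.61 (SE 0.29), from 27, 13, 26 and 27 counts in vehicle to 47, 110 and 57. Col20a1, a fibril-associated chain, rose by 1.80 (SE 0.35), and both were without overlap. Col8a2, a network forming chain of vessel and corneal endothelium, rose by 1.38 (SE 0.37), from 0.89 to 1.44 log2 CPM in vehicle to 1.45, 3.14 and 2.59. Col6a5 and Col6a6, type VI chains whose genes are neighbours on chromosome 9, were called too, with 1 tumour far above the others. Col6a5 had 134, 158, 369 and 294 counts in vehicle and 824, 4565 and 431 in high dose tumours (log2 change 2.95, SE 0.76). Col6a6 had 2, 6, 23 and 24 counts and then 67, 1163 and 15 (log2 change 4.79, SE 1.27). Without high dose replicate 2, their changes were 1.68 (adjusted p = 0.0997) and 1.95 (adjusted p = 0.157).

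Col1a1 (-0.38), Col1a2 (-0.36) and Col3a1 (-0.25) were not called at the high dose. High dose replicate 1, the library with the smallest collagen share, had 9.86 log2 CPM of Col1a1 beside 11.55 and 11.77 in the other two, and without it these changes were 0.03, 0.10 and 0.12. The median log2 change was -0.59 for basement membrane and -0.36 for fibrillar chains, an order that turned without high dose replicate 3 (fibrillar minus basement membrane -0.36, against 0.23 with it). In the same comparison, in which 6.82% of all genes were called lower and 8.8% higher, 2 of 12 endothelial markers fell (Emcn and Cldn5, both by 1.86), 6 of 9 macrophage markers fell (Csf1r by 1.68 and C1qa by 1.45), 3 of 12 fibroblast markers rose (Clec3b by 6.19 and Fbln1 by 3.54), 1 of 10 pericyte markers rose (Rgs5 by 2.37) and 2 of 15 hepatocyte markers rose (Hpd by 6.35 and Cyp2e1 by 5.41), with all 15 above 0. Among genes of the collagen network, P4ha2, a collagen prolyl hydroxylase (1.33), Bmp1, a procollagen protease (0.46), and 3 of 18 basement membrane partners, among them the laminin chains Lamc3 (3.77) and Lama2 (2.19), rose, and Lair1, an inhibitory collagen receptor of leukocytes, fell by 1.75. Most of these calls depended on single libraries too: of 7 fits without 1 library, Lair1 kept its call in 6, Csf1r and C1qa in 3, Bmp1 in 0 and the other genes named in 1 or 2. Of 8 other settings, Lair1 lost its call in 2, Cldn5 and Csf1r in 4, Emcn and C1qa in 5 and the others named in 6, and with the hepatocyte covariate the changes of Rgs5, Hpd and Cyp2e1 were 0.79, 1.54 and 0.79. Without high dose replicate 2, whose fibroblast marker mean was 7.24 log2 CPM beside 4.9 and 5.09 in the other high dose tumours, Clec3b had 2.73, Fbln1 1.90, Lamc3 2.25 and Lama2 1.43, and without replicate 3 P4ha2 had 0.74, none of them called. All 8 collagen calls were lost when any 1 of the 4 vehicle tumours was left out, and 5, 3 and 13 chains were called without high dose replicates 1, 2 and 3. The calls over all genes in these fits are not given here.

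In the DC-101 experiment, 0 of 33 collagen chains were called at the low dose by edgeR, which called 0.0248% of 16138 genes, with 4 chains at an unadjusted p under 0.05 (17.1% of all genes). DESeq2 called 2 (Col10a1 and Col4a2), among 1097 genes in all, and limma-voom 0, among 4 genes. The 2 smallest p-values were those of Col10a1, a chain of growing cartilage, with -1.40 (SE 0.39, adjusted p = 0.15), and Col4a2, with -1.34 (SE 0.48, adjusted p = 0.218). Col10a1 was 3.26, 3.58, 2.87 and 2.32 log2 CPM in vehicle and 1.98, 1.75 and 1.28 in low dose tumours, without overlap. Col4a1 had -1.25 (SE 0.48), Col15a1 -0.98 (SE 0.52) and Col18a1 -0.03 (SE 0.18). The fibrillar chains Col1a1, Col1a2 and Col3a1 had -0.28, -0.13 and -0.12. Without overlap, 3 chains lay below and 0 above every vehicle tumour (9.54% and 6.92% of all genes), as did 8 and 0 of the 12 endothelial markers (median -1.49, with 0 called and 9 at an unadjusted p under 0.05).

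After DC-101, 0 of 33 chains were called by edgeR, DESeq2 or limma-voom. Over all genes, edgeR called 0%, DESeq2 373 genes and limma-voom 0. At an unadjusted p under 0.05 there were 7 chains, beside 13.2% of all genes. Col4a2 had -1.45 (SE 0.48, adjusted p = 0.327), Col4a1 -1.38 (SE 0.48, adjusted p = 0.332) and Col15a1 -1.33 (SE 0.52, adjusted p = 0.355), while Col18a1 had -0.18 (SE 0.18). Col4a1 was 7.74, 8.16 and 9.21 log2 CPM after DC-101, and replicate 3 lay within the vehicle range. Without that replicate the change of Col15a1 was -2.26. In the same comparison 11 of 12 endothelial markers were below 0 (median -1.30, 7 without overlap beside 8.21% of all genes) and all 15 hepatocyte markers above 0 (median 3.66). Of these, edgeR called 0, with 8 and 6 at an unadjusted p under 0.05, and their part in the collagen values was not tested. Col23a1, a transmembrane chain, had the second smallest p, with -1.99 (SE 0.69, adjusted p = 0.332), at 20, 37, 14 and 38 counts in vehicle and 1, 6 and 11 after DC-101. Col1a1, Col1a2 and Col3a1 had -0.44, -0.20 and -0.38. The class medians were -1.35 for basement membrane and -0.33 for fibrillar chains, and -1.12 and -0.07 at the low dose of regorafenib with the same vehicle tumours. Without overlap, 5 chains lay below and 0 above every vehicle tumour (8.21% and 5.24% of all genes).

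In the anti-PD1 experiment, 0 of 34 chains were called in any of the 3 comparisons by edgeR, which called 0% of 16615 genes in each. At the low dose 4 chains had an unadjusted p under 0.05 (11.8% of all genes). DESeq2 called 3 (Col13a1, Col6a5 and Col6a6), among 425 genes in all, and limma-voom 0, among 0 genes. Col6a5 had the smallest p, with -3.18 (SE 0.71, adjusted p = 0.246), at 608, 418 and 1223 counts in vehicle and 132, 26 and 104 in low dose tumours. Col13a1, a transmembrane chain, had -2.93 (SE 0.77, adjusted p = 0.248), at 32, 46 and 11 counts and then 5, 2 and 5. Both were without overlap. Col4a1 had -1.35 (SE 0.67), Col4a2 -1.32 (SE 0.74), Col15a1 -1.21 (SE 0.55) and Col18a1 0.40 (SE 0.35). Without vehicle replicate 3 the first 3 changes were -0.35, -0.39 and -0.06, and that of Col18a1 ran from 0.14 to 0.66 without 1 library. All 12 endothelial markers were below 0 here (median -1.13, 8 without overlap beside 7.37% of all genes), with 0 called by edgeR and 10 at an unadjusted p under 0.05. Col1a1 had 0.26, Col1a2 0.56 and Col3a1 -0.54.

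After anti-PD1, 6 chains had an unadjusted p under 0.05 (13.7% of all genes). DESeq2 called 4 (Col10a1, Col24a1, Col6a5 and Col6a6), among 614 genes in all, and limma-voom 0, among 0 genes. Col24a1, a minor fibrillar chain, had the smallest p (adjusted p = 0.249), at 13, 6 and 94 counts in vehicle and 0, 1 and 1 after anti-PD1. The ratio of the summed counts, per library total, was 0.0187 (exact 95% interval 0.00224 to 0.0693, counting error only), and vehicle replicate 3 held most of the counts. Col6a6 had the next (adjusted p = 0.249), at 46, 8 and 282 counts and then 1, 1 and 10. Col18a1 was 9.34, 9.18 and 9.21 log2 CPM in vehicle and 10.37, 9.65 and 10.09 after anti-PD1, a change of 0.82 (SE 0.36, adjusted p = 0.344) without overlap. Col4a1 had -1.19 (SE 0.67), Col4a2 -1.18 (SE 0.73) and Col15a1 -1.17 (SE 0.55), and Col1a1, Col1a2 and Col3a1 had -0.60, 0.21 and -0.86. Without vehicle replicate 3, Col4a1, Col4a2 and Col15a1 had -0.19, -0.24 and -0.02. Of the markers, all 12 endothelial ones (median -0.71, 8 without overlap) and 14 of 15 hepatocyte ones (median -2.29, 13 lower without overlap) were below 0, where 9.2% of all genes were lower without overlap, with 0 called by edgeR and 5 and 12 at an unadjusted p under 0.05.

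After the combination, DESeq2 and limma-voom called 0 chains, among 150 and 0 genes in all. In edgeR 2 chains had an unadjusted p under 0.05 (8.2% of all genes). They were Col6a5, with -1.87 (SE 0.67, adjusted p = 0.518), and Col18a1, with 0.86 (SE 0.36, adjusted p = 0.572), at 10.64, 9.88 and 9.58 log2 CPM, above every vehicle tumour. Without the first of these the change of Col18a1 was 0.50. Col4a1 was 8.56, 7.88 and 8.83 log2 CPM and had a change of -0.52. That change was 0.48 without vehicle replicate 3, whose level of 9.99 was the highest of its group. All 12 endothelial markers were below 0 (median -0.73, 6 without overlap beside 8.1% of all genes) and 9 of 15 hepatocyte markers above 0 (median 0.08), with 0 called by edgeR and 5 and 2 at an unadjusted p under 0.05. Col4a2 had -0.46, Col15a1 -0.90, Col1a1 0.62, Col1a2 0.89 and Col3a1 -0.06, and without that vehicle replicate Col4a2 and Col15a1 turned to 0.47 and 0.25. In this experiment the medians of the basement membrane and fibrillar chains were -1.27 and -0.06 at the low dose, -1.17 and -0.73 after anti-PD1, and -0.49 and 0.20 after the combination. Beside these, chains without overlap were 2 below and 2 above at the low dose (7.37% and 6.68% of all genes), 3 and 1 after anti-PD1 (9.2% and 7.43%), and 1 and 2 after the combination (8.1% and 9.58%).

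**Figure D5:**
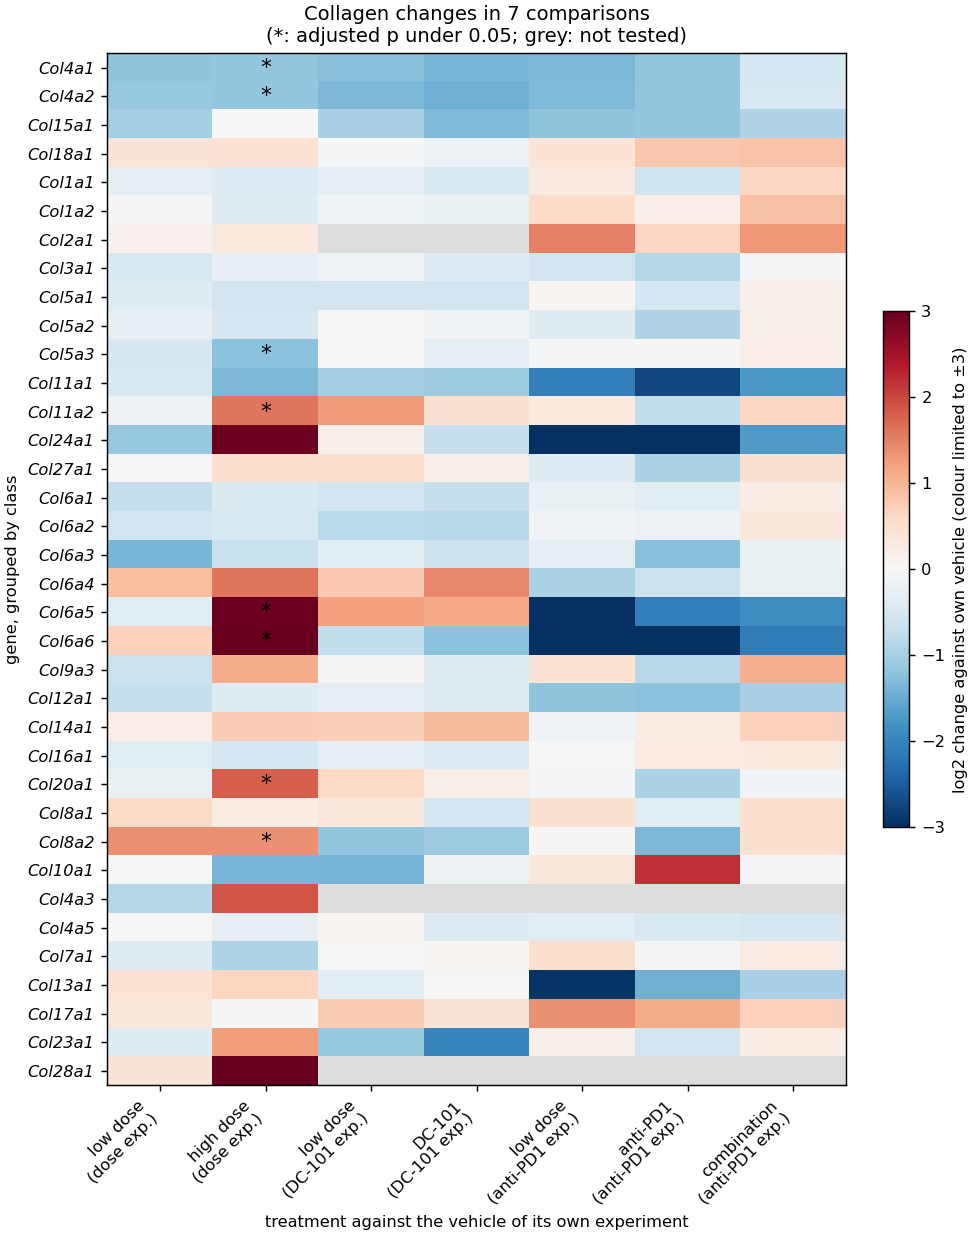
Log2 change of each tested collagen chain (rows, grouped by class) in 7 comparisons (columns), with colour from -3 (blue) to 3 (red), grey where a chain was not tested and a star where the adjusted p is under 0.05. Col4a1 and Col4a2 are blue in all 7 columns, the 8 stars are all in the high dose column, and Col6a5 and Col6a6 are red there and blue at the low dose of the anti-PD1 experiment.

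An interaction term tested whether the experiments differed in their low dose change. For 0 of 32 collagen chains did it differ past the adjusted threshold (0% of 15562 genes), and 5 had an unadjusted p under 0.05 (9.52% of all genes). The p-values for Col4a1, Col4a2 and Col15a1 were 0.979, 0.96 and 0.943, with changes of -1.20, -1.25 and -1.35 for Col4a1 in the experiments on dose, DC-101 and anti-PD1, in that order, the last being -0.35 without vehicle replicate 3. Col6a5 had the smallest (0.00868, adjusted p = 0.424), with changes of -0.34, 1.23 and -3.18, the 1.23 with 1 vehicle library at 5 counts. The others were Col6a6 (0.00951), Col8a2 (0.0162), Col6a4 (0.0438) and Col13a1 (0.0441).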

How the data were processed

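Total RNA was sequenced as paired reads from stranded poly(A) libraries. The labels name frozen tissue as its source, and the study's methods name fresh tumours. The authors trimmed reads with cutadapt 2.4 and counted them per gene with STAR 2.7.2a on GRCm38 with Gencode annotation, per the labels and the study's methods, and deposited whole read counts for 54446 genes in 3 tables, one per experiment. Which strand column was taken is not given in the sources used here. Gene IDs were matched to a Gencode annotation of GRCm38 (99.93% matched).

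Counts were filtered with edgeR's filterByExpr (minimum count 10, minimum total 15), scaled by TMM and tested with edgeR 4.0.16 (robust quasi-likelihood F-test, R 4.3.3), with Benjamini-Hochberg adjustment over all genes tested and a threshold of 0.05. Log2 CPM used a prior count of 2. Each experiment was fitted with all its groups. The low dose was also fitted over the 3 experiments with the experiment as a term, and with an interaction. Alternatives were DESeq2 1.42.0, limma-voom 3.58.1, other scalings, no filter, a replicate block, a hepatocyte covariate, the compared groups alone, and leaving out experiments or libraries. The fits were also run on simulated counts, and the outcome of that run is not given here. No 2 libraries of a group agreed within sampling noise (chi-square per degree of freedom 14 or more over 36 pairs). Intervals cover counting error only.

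The collagen members, classes and marker lists were chosen with earlier results of these data known. Named genes were the tested fibrillar and basement membrane chains, 7 of them in every comparison, every chain past the threshold, the 2 smallest p-values where none was, and for other lists up to 4 called genes over the 3 experiments and up to 2 elsewhere. Others were named after their values were seen (Col6a1, Col6a2, Col6a4, Col12a1, Col14a1, Col4a5, Col7a1 and Col17a1). Protein sequences were not used here.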

Additional observations from a re-analysis of the deposited data

Results flagged for a closer look

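In groups of 4 libraries, 2 of 48 tests (22 collagen genes, the fibrillar minus basement membrane mean and the collagen share of counts, in each of the vehicle groups of the dose and DC-101 experiments) found 1 vehicle library far from the others, where chance alone gives about 1 in 20. Col27a1, a fibrillar chain, was 6.18 log2 CPM in vehicle replicate 3 of the dose experiment and 5.6 to 5.64 in the other vehicle libraries, a gap of 0.935 of the range of the group. Col6a3 was 8.17 log2 CPM in 1 vehicle tumour (replicate 2, DC-101 experiment) and 6.73 to 6.92 in the others, a gap of 0.871 of the range.

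For these type VI and network forming chains, every low dose tumour lay above its own vehicle mean in at least 1 experiment and every one below it in another. None passed the adjusted threshold for a difference between experiments (edgeR interaction test). The p-value was 0.00868 for Col6a5 (adjusted p = 0.424), with log2 changes of -0.34, 1.23 and -3.18 in the experiments on dose, DC-101 and anti-PD1, in that order. It was 0.00951 for Col6a6 (adjusted p = 0.424), with 0.69, -0.74 and -3.88. It was 0.0162 for Col8a2 (adjusted p = 0.459), with 1.37, -1.16 and 0.03, and 0.0438 for Col6a4 (adjusted p = 0.516), with 0.90, 0.78 and -0.95.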

How the results depend on the processing

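The count of called collagen chains for the low dose over 3 experiments was 1, among 276 genes called in all. It was 3 with DESeq2 (892 genes in all) and 2 without the anti-PD1 experiment (407). With total-count scaling (280), without the filter (153), with the replicate block (178) and with the hepatocyte covariate (205) it was 0. Without the dose (63) or the DC-101 experiment (17) it was 0 too, and it was 0 to 2 without 1 library. The call of Col4a1 was kept when vehicle replicate 3 (DC-101 experiment), vehicle replicate 1 or 2 (anti-PD1 experiment) or low dose replicate 2 (same) was left out, and lost without each of the other 16 libraries, the change keeping its sign in all 20. At the high dose the count was 8, among 2582 genes called in all. It was 10 with DESeq2 (5275), which added Col24a1 and Col28a1, 5 with limma-voom (1332) and 3 without the filter (416). It was 0 with total-count scaling (282), the replicate block (1), the hepatocyte covariate (119) or the compared groups alone (4). Without 1 library it was 0 to 13. At the low dose of the dose experiment (0, among 0 genes in all) it was 3 with DESeq2 (85) or the compared groups alone (75). With DESeq2 it was 2 and 3 at the low dose of the DC-101 and anti-PD1 experiments and 4 after anti-PD1, where edgeR called 0. Over all genes, DESeq2 called 1097, 425 and 614 in these fits and edgeR 4, 0 and 0.

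The fibrillar minus basement membrane difference of medians was 0.81 at the low dose of the dose experiment, 0.54 with the replicate block and 1.01 with the hepatocyte covariate. At the high dose it was 0.23, 0.78 with that covariate, and -0.36 to 0.83 without 1 library. After DC-101 it was 1.02, and 0.60 to 1.59.

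Changes that turned their sign were not called in either fit, and the cause was not tested. Over 3 experiments these were Col27a1 (-0.19 without the DC-101 experiment) and Col1a2 (-0.10 without the anti-PD1 experiment). With the hepatocyte covariate they were Col1a2 at the low dose (0.25) and high dose (0.17) of the dose experiment, Col1a1 (-0.62) and Col1a2 (-0.07) at the low dose of the anti-PD1 experiment, and Col1a2 after anti-PD1 (-0.49). Col15a1 at the high dose was 0.00 with median-ratio scaling, Col18a1 at the low dose of the DC-101 experiment was 0.01 with the replicate block, and Col3a1 after the combination was 0.02 with limma-voom and 0.05 with the block.

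Without 1 library, the ranges that crossed 0 were, over 3 experiments, -0.27 to 0.11 for Col1a1, -0.02 to 0.19 for Col1a2, -0.32 to 0.10 for Col5a3 and -0.14 to 0.46 for Col27a1. In the dose experiment they were -0.18 to 0.03 for Col1a2 at the low dose, and -0.74 to 0.03 for Col1a1, -0.81 to 0.10 for Col1a2, -0.63 to 0.12 for Col3a1 and -1.41 to 0.39 for Col15a1 at the high dose. At the low dose of the DC-101 experiment they were -0.57 to 0.06 for Col1a1, -0.30 to 0.11 for Col1a2, -0.65 to 0.31 for Col3a1 and -0.21 to 0.15 for Col18a1. At the low dose of the anti-PD1 experiment they were -0.23 to 1.32 for Col1a1 and -0.84 to 0.03 for Col3a1. After anti-PD1 they were -1.08 to 0.46 for Col1a1 and -0.11 to 0.57 for Col1a2, and after the combination -0.36 to 0.51 for Col3a1, -0.85 to 0.48 for Col4a1, -0.82 to 0.47 for Col4a2 and -1.27 to 0.25 for Col15a1.

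Replicate numbers share no stated animal or day, and deviations of same-numbered libraries correlated above 0.1 in 2 of 9, 4 of 9 and 6 of 18 pairs. The numbers were not taken as pairs in the main fits. In the DC-101 experiment the 9 pairs ran from -0.46 to 0.67, and those of replicate 3 had 0.45, 0.67 and 0.63. What these libraries share was not tested. Low counts limit Col6a4, Col6a6, Col11a2, Col13a1, Col17a1, Col23a1 and Col24a1.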
